A study of Mus musculus with 54 samples.

Results

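Gene expression in the striatum of C57BLKS/J mice was compared with that in C57BL6/J mice, on 3 microarrays from each strain. These 6 arrays were taken by their labelled tissue and strain from the 54 arrays of a study of 6 inbred strains and 3 brain tissues. The other strains were C57BL10/J, C57L/J, C3H HeJ and BalbC/J, and the other tissues hippocampus and brainstem. The strains were chosen by the study to span a range of prepulse inhibition, the damping of a startle response by a weaker sound that comes just before it. In both strains, 1 array held mice tested for prepulse inhibition at PND50 and 2 arrays held untested mice of the same strain. All mice were males killed at PND60, and each array pooled whole striatum of 3 mice from alternating hemispheres. The labels name no transgene, mutant allele or drug in either strain. Replicates are therefore pools, and every p-value below measures the spread between pools rather than between single mice.

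The striatum receives cortical and dopaminergic input and consists mostly of GABAergic spiny projection neurons, which carry dopamine D1 or D2 receptors. It is one of the forebrain regions through which prepulse inhibition is known to be modulated. C57BLKS/J is known as a strain of mixed descent: most of its genome is like that of C57BL/6J, and other segments are like those of DBA/2J and further strains. C57BL/6J is the common laboratory strain that the labels write as C57BL6/J. Differences between inbred strains on 3′ arrays can come from the amount of transcript, from the transcript end that is used or from sequence variants under the probes. Which of these contributes to any difference below was not tested.

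Values are log2 levels per probe set as deposited, and each gene is represented by its brightest single-gene probe set. A difference is C57BLKS/J minus C57BL6/J in log2 units, estimated with limma together with a term for testing on all 18 striatum arrays and given with its standard error. A gene counts as called where its p, adjusted by Benjamini and Hochberg over all 12320 genes tested, is below 0.05. The 3 array values of a strain are listed with the tested pool first and then the 2 untested pools. Over all probe sets other than controls, without a filter, arrays of C57BLKS/J correlated with each other at r = 0.9967 to 0.9983, those of C57BL6/J at 0.9979 to 0.9985, and arrays of different strains at 0.9949 to 0.9968. Each of the 6 arrays had its highest correlation among the 18 striatum arrays with an array of its own strain. Array medians lay between 4.18 and 4.29, and the 40th percentile, which served as the filter on low values, between 3.12 and 3.27. The tissue label was borne out by 23 tested markers of spiny projection neurons, whose mean level was 12.99 to 13.05 in C57BLKS/J striatum and 12.97 to 13.09 in C57BL6/J striatum, while it reached no more than 8.52 in the C57BLKS/J arrays and 8.43 in the C57BL6/J arrays of brainstem and no more than 8.06 in the hippocampus arrays of both strains.

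The strains differed at 268 genes, 2.18% of those tested. In C57BLKS/J, 147 of these were higher (1.19% of genes tested) and 121 lower (0.982%). Higher calls did not outnumber lower ones under every alternative: they numbered 141 against 155 with probe sets averaged, 109 against 112 with median centring, 79 against 89 without the second untested C57BLKS/J array and 75 against 82 without the first untested C57BL6/J array. Differences exceeded 2-fold in 92 genes, 41 higher and 51 lower, and 4-fold in 5 higher and 21 lower genes. The median size of a called difference was 0.77, against 0.09 for all genes tested, and the median standard error was 0.12. For all 268 called genes the 3 arrays of one strain lay beyond the 3 arrays of the other. Since the calls were made on these same arrays, this is no separate support for them. The share of all genes tested that lay apart in this way was not counted. An unadjusted p under 0.05 was reached by 1360 genes, and the median difference of all genes was 0.02. The number of calls changed with the arrays used: it was 168 without the second untested C57BLKS/J array, 157 without the first untested C57BL6/J array and 165 without the second.

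**Figure D1:**
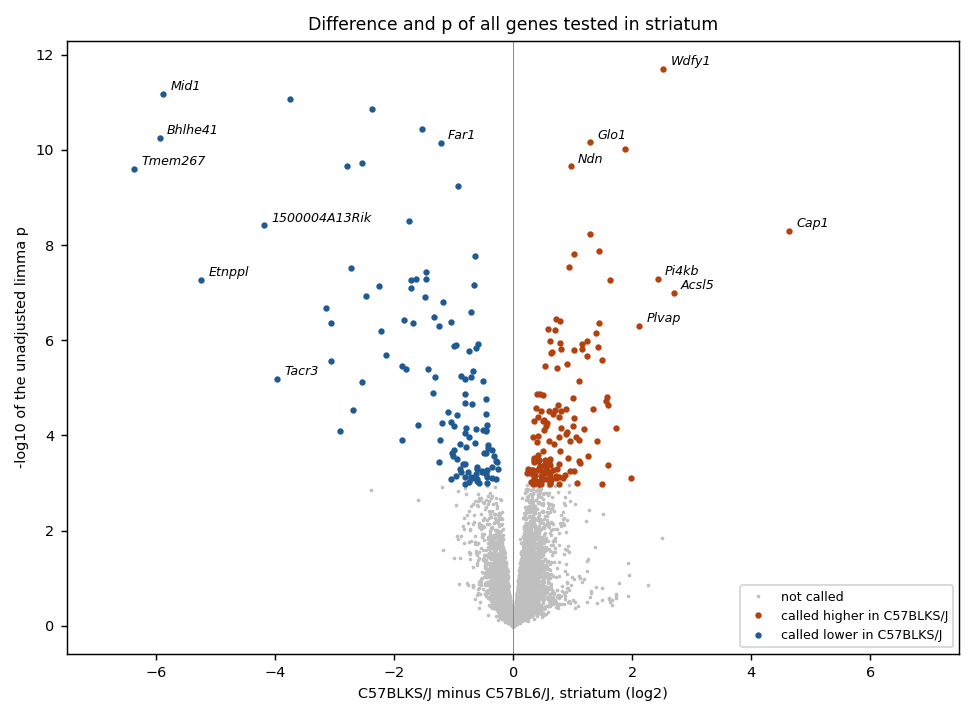
Difference between the strains in striatum (x axis, C57BLKS/J minus C57BL6/J, log2) against −log10 of the unadjusted limma p (y axis), 1 point for each of the 12320 genes tested. The 147 genes called higher and 121 called lower are coloured, and the named genes reach from Tmem267 at −6.37 to Cap1 at 4.64.

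Among the genes higher in C57BLKS/J, the widest separation was that of Cap1, which encodes an actin regulator that binds adenylyl cyclase in yeast. Its level was 12.52, 12.54 and 12.58 in C57BLKS/J, against 8.22, 7.81 and 7.69 in C57BL6/J. The C57BLKS/J arrays differed from each other by less than 0.1 and lay 24.9-fold above C57BL6/J, a difference of 4.64 ± 0.37 (adjusted p = 3.61e-06). The second Cap1 probe set that passed the filter gave a difference of 4.87 (adjusted p = 0.000432 among probe sets).

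Acsl5, a long-chain acyl-CoA synthetase that activates fatty acids, had levels of 11.67, 11.37 and 11.81 in C57BLKS/J, against 8.88, 8.96 and 8.90 in C57BL6/J. Its difference was 2.70 ± 0.27 (adjusted p = 3.68e-05), or 6.5-fold. Slc27a1, which encodes a fatty acid transport protein, had levels of 8.21, 8.03 and 8.09 in C57BLKS/J, against 7.09, 5.62 and 6.86 in C57BL6/J. The lowest C57BL6/J array stood more than 1 log2 unit below the other two, and the difference of 1.59 ± 0.34 (adjusted p = 0.0268) lost its call without any 1 of the C57BLKS/J arrays or without that C57BL6/J array. Its next probe set gave −0.11, not called.

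Wdfy1, which encodes an endosomal protein that binds phosphatidylinositol 3-phosphate, had levels of 10.23, 10.58 and 10.59 in C57BLKS/J, against 8.09, 7.89 and 7.87 in C57BL6/J. All 3 of its probe sets that passed the filter were called, with differences of 2.52, 2.71 and 2.08. Pi4kb, a phosphatidylinositol 4-kinase of the Golgi, had levels of 5.65, 5.88 and 6.16 in C57BLKS/J, against 3.73, 3.30 and 3.39 in C57BL6/J. The difference was 2.43 ± 0.23 (adjusted p = 2.21e-05), whereas its next probe set gave 0.46 (adjusted p = 0.652 among probe sets). Every C57BLKS/J array of both genes lay more than 1 log2 unit above every C57BL6/J array.

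Plvap, which forms the diaphragms of fenestrated endothelium, had levels of 8.76, 8.69 and 8.67 in C57BLKS/J, against 6.27, 7.10 and 6.41 in C57BL6/J, a difference of 2.11 ± 0.24 (adjusted p = 0.000128). Endothelial and mural cell markers as a list showed no call among 12 tested, with a median of 0.02. In pooled tissue, fewer cells of a type and less RNA per cell cannot be told apart. Cd59a, an inhibitor of the complement membrane attack complex, had levels of 9.39, 9.43 and 8.66 in C57BLKS/J, against 7.66, 7.63 and 7.48 in C57BL6/J. Its difference was 1.57 ± 0.24 (adjusted p = 0.00207), with 1 untested C57BLKS/J array closer to C57BL6/J than the other two.

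Pfn1, the actin-monomer binding protein profilin, had levels of 11.20, 11.52 and 11.46 in C57BLKS/J, against 9.93, 9.63 and 9.71 in C57BL6/J. The difference was 1.64 ± 0.16 (adjusted p = 2.21e-05). Myh7, the heavy chain of slow and cardiac muscle myosin, had levels of 8.61, 9.06 and 8.86 in C57BLKS/J, against 7.5, 7.34 and 6.92 in C57BL6/J. The difference was 1.59 ± 0.25 (adjusted p = 0.0028). Ptchd4, a member of the patched-domain family, had levels of 9.03, 8.73 and 9.24 in C57BLKS/J, against 7.60, 7.22 and 6.99 in C57BL6/J. The difference was 1.73 ± 0.31 (adjusted p = 0.0067). In each of these genes the lowest C57BLKS/J array was above the highest C57BL6/J array by more than 1 log2 unit.

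Cpne9, a copine that binds phospholipid in the presence of calcium, had levels of 8.30, 9.20 and 9.56 in C57BLKS/J, against 6.72, 7.0 and 7.39 in C57BL6/J, and its difference of 1.98 ± 0.47 (adjusted p = 0.0414) lost its call when any 1 of the 6 arrays was left out. Ube2d-ps, annotated as a pseudogene of a ubiquitin-conjugating enzyme, had levels of 8.69, 8.64 and 8.48 in C57BLKS/J, against 6.64, 6.81 and 6.69 in C57BL6/J. The difference was 1.89 ± 0.11 (adjusted p = 1.29e-07). Its second probe set was called lower, with means of 2.12 in C57BLKS/J and 3.72 in C57BL6/J, the first of which is below the 40th percentile, so the gene has no single direction on this array.

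**Figure D2:**
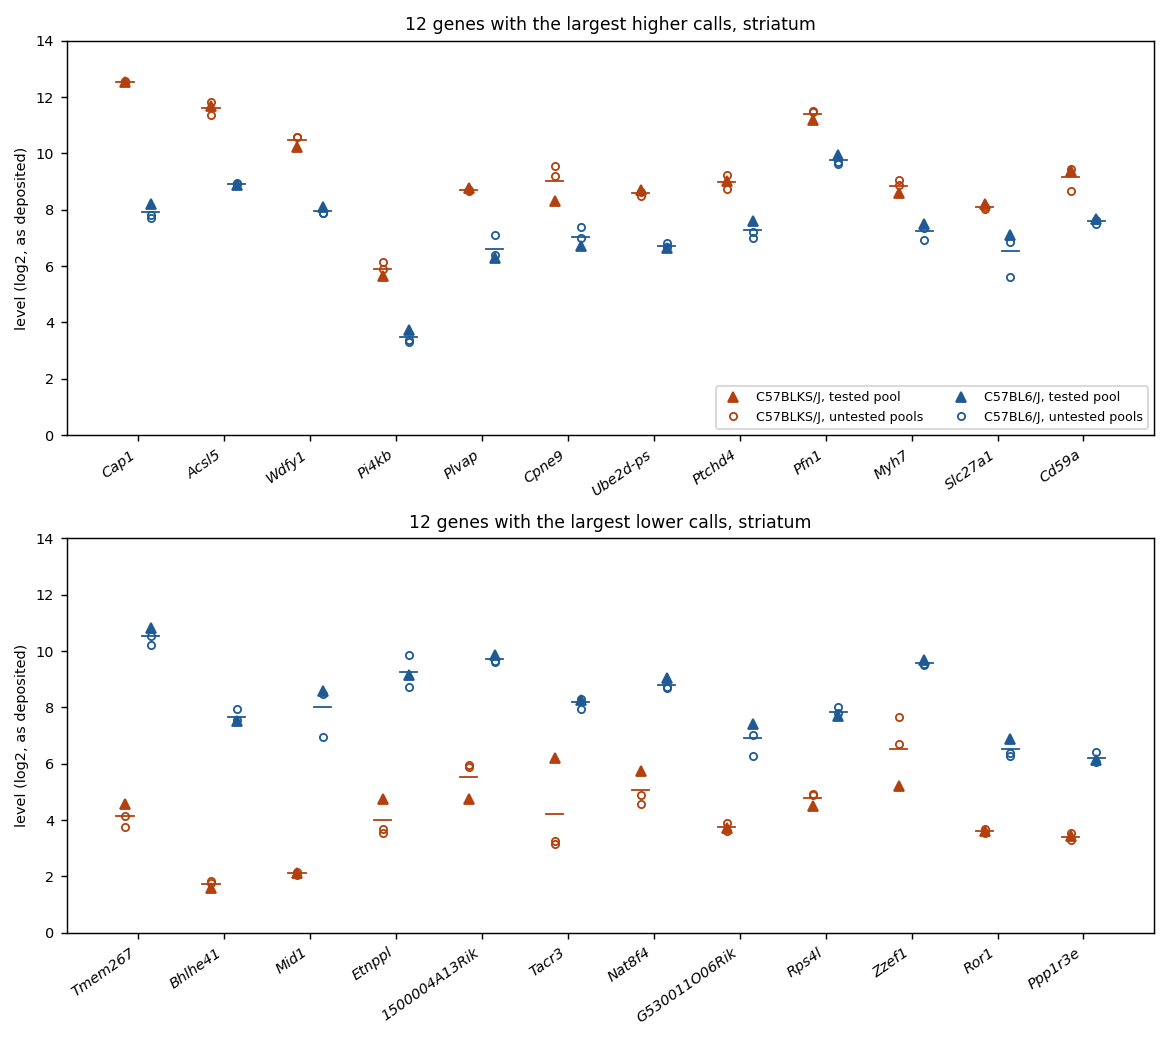
Log2 level (y axis) of the 12 genes with the largest higher calls (upper panel) and the 12 with the largest lower calls (lower panel) on each striatum array, C57BLKS/J left of C57BL6/J for each gene. Triangles are tested pools, circles untested pools and short lines strain means. The arrays of the strains do not overlap for any gene shown, while Tacr3, Zzef1 and Slc27a1 have 1 or more arrays far from the others of their strain.

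The lower calls reached further from 0 than the higher ones. Tmem267, which encodes a transmembrane protein, had levels of 4.57, 3.76 and 4.15 in C57BLKS/J, against 10.81, 10.53 and 10.23 in C57BL6/J. This was the largest difference of all called genes at −6.37 ± 0.40 (adjusted p = 2.37e-07), or 82.5-fold lower. The gene had no second probe set in these data.

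Bhlhe41, a transcriptional repressor of the circadian clock, had levels of 1.59, 1.85 and 1.78 in C57BLKS/J, against 7.53, 7.55 and 7.95 in C57BL6/J. All 3 C57BLKS/J arrays were at or below the 40th percentile of their array. Set against that percentile as a floor, the gene was at least 22.3-fold lower, and the fitted difference was −5.94 ± 0.33 (adjusted p = 1.1e-07). Mid1, an X-linked ubiquitin ligase gene that reaches across the pseudoautosomal boundary in laboratory mice, had levels of 2.14, 2.16 and 2.06 in C57BLKS/J, against 8.58, 8.49 and 6.95 in C57BL6/J. It too lay at or below the 40th percentile on all 3 C57BLKS/J arrays and was at least 27.9-fold lower, with a fitted difference of −5.89 ± 0.28 (adjusted p = 3.52e-08).

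Etnppl, the pyridoxal phosphate-dependent lyase of phosphoethanolamine and a marker of astrocytes, had levels of 4.75, 3.68 and 3.56 in C57BLKS/J, against 9.15, 8.71 and 9.88 in C57BL6/J. Its difference was −5.25 ± 0.50 (adjusted p = 2.21e-05), and its second probe set had a difference of −2.02 (adjusted p = 0.0294 among probe sets). No other of the 15 astrocyte markers tested was called, and the median of that list was 0.01. Nat8f4, a member of the N-acetyltransferase 8 family, had levels of 5.75, 4.88 and 4.58 in C57BLKS/J, against 9.03, 8.72 and 8.69 in C57BL6/J. The difference was −3.74 ± 0.18 (adjusted p = 3.52e-08). Probe sets of this family can share sequence between its members.

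Tacr3, the receptor of neurokinin B, had levels of 6.19, 3.26 and 3.16 in C57BLKS/J, against 8.28, 8.31 and 7.94 in C57BL6/J. The tested C57BLKS/J pool stood about 3 log2 units above the other two and still below every C57BL6/J array. The difference was −3.97 ± 0.57 (adjusted p = 0.000958) for this probe set, with 1 C57BLKS/J array at or below its 40th percentile. The second probe set was called lower as well, with a C57BLKS/J mean of 2.59 that is below that percentile. Sema3a, a secreted axon guidance cue, had levels of 5.67, 4.87 and 6.23 in C57BLKS/J, against 8.06, 7.99 and 8.16 in C57BL6/J, a difference of −2.48 ± 0.25 (adjusted p = 4.11e-05). Ror1, a receptor tyrosine kinase-like protein that binds Wnt5a, had levels of 3.60, 3.55 and 3.67 in C57BLKS/J, against 6.89, 6.28 and 6.40 in C57BL6/J, a difference of −2.92 ± 0.53 (adjusted p = 0.00743). In all 3 genes of receptors and guidance the strains were apart, with the C57BLKS/J arrays of Ror1 differing by about 0.1 only.

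Zzef1, a zinc finger and EF-hand protein gene, had levels of 5.22, 6.69 and 7.66 in C57BLKS/J, against 9.70, 9.51 and 9.55 in C57BL6/J. The C57BLKS/J arrays spread over more than 2 log2 units, and the difference was −3.07 ± 0.41 (adjusted p = 0.00047). Its other probe sets that passed the filter gave 0.35 and −0.10, neither called, so the lower level belongs to 1 of 3 probe sets. Ppp1r3e, a glycogen-targeting subunit of protein phosphatase 1, had levels of 3.42, 3.54 and 3.29 in C57BLKS/J, against 6.14, 6.06 and 6.42 in C57BL6/J. The difference was −2.79 ± 0.17 (adjusted p = 2.29e-07), whereas the second probe set, near the floor in both strains, gave −0.08.

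Rps4l, a ribosomal protein S4-like gene, had levels of 4.51, 4.93 and 4.89 in C57BLKS/J, against 7.68, 8.03 and 7.82 in C57BL6/J. The difference was −3.07 ± 0.35 (adjusted p = 0.000114). The RIKEN transcript 1500004A13Rik had levels of 4.74, 5.95 and 5.88 in C57BLKS/J, against 9.87, 9.65 and 9.60 in C57BL6/J. The difference was −4.19 ± 0.32 (adjusted p = 2.96e-06). G530011O06Rik, another RIKEN transcript, had levels of 3.71, 3.63 and 3.91 in C57BLKS/J, against 7.41, 7.01 and 6.28 in C57BL6/J. The difference was −3.15 ± 0.34 (adjusted p = 6.8e-05). All 3 transcripts were below 6 on each C57BLKS/J array and above 6 on each C57BL6/J array.

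How far other probe sets bore out the calls was counted. Of the 268 called genes, 131 had a second probe set past the filter. That second probe set was called in the same direction in 37, was called in the opposite direction in 4, and was not called in 66 with the same sign and in 24 with the opposite sign. Among called genes over 2-fold, 20 of the 41 with a second probe set were called in the same direction and 2 in the opposite one. At the level of probe sets, 601 of 27635 tested were called (2.17%), 132 of them with no single gene symbol here. That count was 386 without the first untested C57BL6/J array and 385 without the second.

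The other 4 strains show on which side of each difference the common level lay. For Wdfy1 the level was 10.47 ± 0.20 in C57BLKS/J (mean ± SD, n = 3), 10.45 ± 0.08 in C57BL10/J, 10.31 ± 0.15 in C57L/J, 10.46 ± 0.09 in C3H HeJ and 10.42 ± 0.15 in BalbC/J. It was 7.95 ± 0.12 in C57BL6/J. C57BL6/J alone was low, by more than 2 log2 units. Gabra2, the α2 subunit of the GABA-A receptor, whose expression is known to be reduced by an intronic deletion in C57BL/6J, had 11.75 ± 0.24 in C57BLKS/J and 10.36 ± 0.24 in C57BL6/J. The other 4 strains had means from 11.68 in C57BL10/J to 11.91 in C3H HeJ. Its difference was 1.39 ± 0.16 (adjusted p = 0.000161), and all 3 probe sets above the filter were called higher.

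Mid1 showed the reverse, with 2.12 ± 0.05 in C57BLKS/J, 2.07 to 2.12 as the means of C57BL10/J, C57L/J, C3H HeJ and BalbC/J, and 8.0 ± 0.92 in C57BL6/J. Erdr1, a neighbour in the pseudoautosomal region, was 7.88, 8.51 and 8.13 in C57BLKS/J, against 11.40, 10.46 and 10.74 in C57BL6/J, and its mean in C57L/J was 2.30. For Cap1, C57BLKS/J, C57BL10/J, C3H HeJ and BalbC/J had means of 12.55, 12.52, 12.65 and 12.73, while C57L/J was low at 6.16 ± 1.31 together with C57BL6/J at 7.91 ± 0.28. Because these contrasts share the C57BLKS/J arrays, the difference from C57BL10/J is given only beside the others: it was 0.03 ± 0.37 (adjusted p = 0.994) for Cap1, 0.03 ± 0.11 (adjusted p = 0.977) for Wdfy1, 0.07 ± 0.16 (adjusted p = 0.955) for Gabra2 and 0.01 ± 0.28 (adjusted p = 0.998) for Mid1.

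Nnt encodes the mitochondrial proton-pumping transhydrogenase, in which C57BL/6J is known to carry a deletion. Its level was 10.89, 10.79 and 10.56 in C57BLKS/J, against 10.32, 10.10 and 9.99 in C57BL6/J, a difference of 0.61 ± 0.14 (adjusted p = 0.0344). The other 4 strains lay above C57BLKS/J, with means from 11.09 in C3H HeJ to 11.32 in C57L/J, so C57BLKS/J was between them and C57BL6/J. The second Nnt probe set was called higher as well, by 0.56. The call of the first was lost when any 1 of 4 of the 6 arrays was left out.

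A second set of genes had C57BLKS/J apart. Acsl5 had 11.61 ± 0.22 in C57BLKS/J, and the means of the others ran from 8.97 in BalbC/J to 9.44 in C57L/J, with 8.91 ± 0.04 in C57BL6/J. Tacr3 had 4.20 ± 1.72 in C57BLKS/J and means of 7.18 to 7.92 in C57BL10/J, C57L/J, C3H HeJ and BalbC/J, with 8.18 ± 0.20 in C57BL6/J. Zzef1 had 6.52 ± 1.23 in C57BLKS/J, 9.36 to 9.73 in those 4 strains and 9.59 ± 0.10 in C57BL6/J. Set against C57BL10/J, the difference was 2.52 ± 0.27 (adjusted p = 6.35e-05) for Acsl5, −3.72 ± 0.57 (adjusted p = 0.00193) for Tacr3 and −3.21 ± 0.41 (adjusted p = 0.000335) for Zzef1.

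In a further set, C57BLKS/J and C3H HeJ lay on the same side of C57BL6/J. Tmem267 had 4.16 ± 0.41 in C57BLKS/J, 4.81 ± 1.0 in C3H HeJ, between 8.90 and 9.85 in C57BL10/J, C57L/J and BalbC/J, and 10.52 ± 0.29 in C57BL6/J. Bhlhe41 had 1.74 ± 0.13 in C57BLKS/J, 1.71 ± 0.15 in C3H HeJ, 6.86 to 7.11 in the same 3 strains and 7.68 ± 0.24 in C57BL6/J. Glo1, the glyoxalase that removes methylglyoxal and that is known to vary in copy number between inbred strains, had 12.75 ± 0.10 in C57BLKS/J, 12.89 ± 0.13 in C3H HeJ, 11.48 to 11.77 in the same 3 strains and 11.46 ± 0.02 in C57BL6/J. All 4 Glo1 probe sets were called higher in C57BLKS/J over C57BL6/J, and the main one differed by 1.29 ± 0.07 (adjusted p = 1.1e-07). Pi4kb, Plvap and Slc27a1 had C57BLKS/J means of 5.90, 8.71 and 8.11, with C3H HeJ at 7.32, 9.03 and 8.52, BalbC/J at 6.45, 8.58 and 8.39 and C57BL6/J at 3.47, 6.59 and 6.52. Between C57BLKS/J and C57BL10/J, 262 of the 12320 genes tested were called (2.13%).

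**Figure D3:**
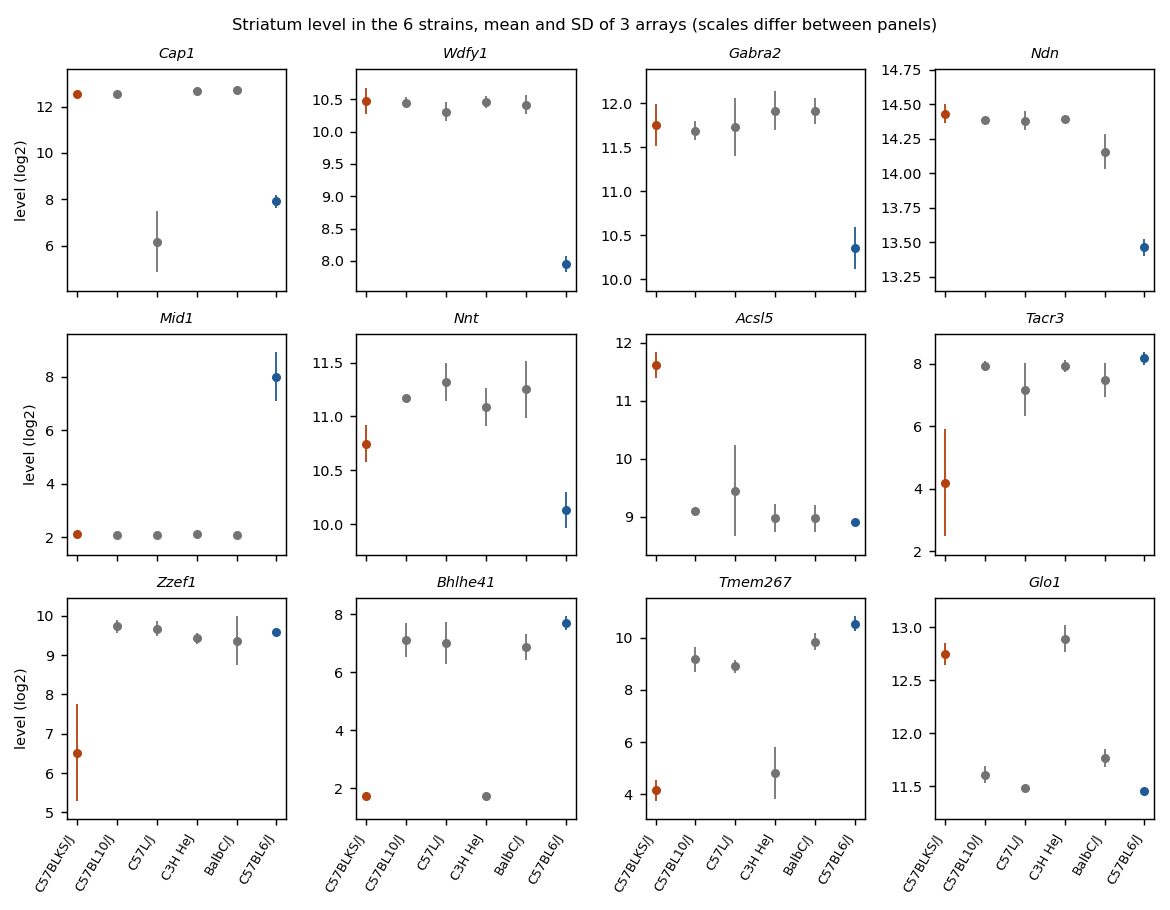
Striatum level (y axis, log2, scales differ between panels) of 12 genes in the 6 strains, C57BLKS/J first and C57BL6/J last, mean with SD of 3 arrays. C57BL6/J alone is low for Wdfy1, Gabra2 and Ndn and alone high for Mid1, C57BLKS/J alone is apart for Acsl5, Tacr3 and Zzef1, and C57BLKS/J lies with C3H HeJ for Bhlhe41, Tmem267 and Glo1.

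Genes of striatal function were examined as lists chosen with earlier results of these data known. None of 23 tested markers of spiny projection neurons was called, with differences from −0.20 to 0.34 and a median of −0.05, against 2.18% called and a median of 0.02 for all genes. The smallest p of that list belonged to Foxp2, a forkhead transcription factor, at 12.08, 11.95 and 11.88 in C57BLKS/J, against 11.85, 11.69 and 11.59 in C57BL6/J, a difference of 0.26 ± 0.13 (adjusted p = 0.481). Among 23 genes of dopamine and cAMP signalling there was no call either (median −0.06). Rgs4, a regulator of G-protein signalling, came nearest at −0.17 ± 0.08 (adjusted p = 0.468). Glutamate receptors (0 of 19, nearest Grik3 at 0.20 ± 0.08), voltage-gated ion channels (0 of 29, nearest Cacna1b at 0.29 ± 0.08) and serotonin and acetylcholine receptors (0 of 10, nearest Htr1a at 0.81 ± 0.66) had medians of 0.01, −0.04 and −0.06.

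Among GABA-A receptor subunits, Gabra2 was called and the other 8 tested were not, with differences from −0.20 to 0.47. Within the interneuron and neuropeptide lists, Npy was called. Npy encodes neuropeptide Y, made in the striatum by interneurons that also contain somatostatin and nitric oxide synthase. It had levels of 11.84, 11.93 and 12.07 in C57BLKS/J, against 11.05, 11.11 and 11.27 in C57BL6/J. The difference was 0.80 ± 0.10 (adjusted p = 0.000298). The call held without any 1 array. Sst and Nos1, other markers of these interneurons that were chosen after their values were seen, were not called, with differences of 0.24 (adjusted p = 0.841) and 0.69 (adjusted p = 0.264). The median was 0.49 over 7 tested interneuron markers and 0.38 over 9 tested neuropeptide genes. Crh, chosen after its value was seen, had the largest difference of the neuropeptide list at 2.51 ± 0.90, not called (adjusted p = 0.246).

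Markers of neighbouring tissue varied between pools of the same strain and are given beside the neuropeptide values. The mean level of 12 cortical neuron markers was 8.32, 9.01 and 9.98 in C57BLKS/J, against 8.51, 7.37 and 8.93 in C57BL6/J, with none called and a median difference of 0.73. None of these 12 differences was negative. For 11 choroid plexus and ependymal markers the mean level was 7.63, 6.70 and 4.72 in C57BLKS/J, against 6.28, 4.94 and 5.46 in C57BL6/J, with none called and a median of 0.61. Of these 11 differences 1 was negative. The smallest p values of the 2 lists belonged to Cux2 at 1.24 ± 0.63 (adjusted p = 0.52) and Aqp1 at 1.37 ± 0.53 (adjusted p = 0.312). Array values of the 2 strains overlapped for both mean levels. The part that cortical or ventricular tissue in the dissection may have in the differences of Npy and of other neuronal genes was not tested. Olfactory and neuroblast markers had 1 call among 7, Cdhr1, a photoreceptor cadherin, at 4.56, 4.86 and 4.69 in C57BLKS/J, against 3.59, 3.93 and 3.42 in C57BL6/J, a difference of 1.06 ± 0.20 (adjusted p = 0.00941), lost without the first untested C57BLKS/J or the second untested C57BL6/J array. Hippocampal neuron markers (0 of 7, median 0.11, nearest Wfs1 at 0.49 ± 0.22) and thalamic and septal markers (0 of 10, median 0.04, nearest Trpc4 at 0.59 ± 0.32) showed no call.

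Glial and vascular lists are read against the 2.18% called and the median difference of 0.02 over all genes. Opalin, a myelin protein of oligodendrocytes, was lower at 9.44, 9.59 and 9.50 in C57BLKS/J, against 10.06, 10.38 and 10.79 in C57BL6/J, a difference of −0.90 ± 0.20 (adjusted p = 0.0313) that lost its call when any 1 array other than the tested C57BL6/J one was left out. It was the only call of 13 oligodendrocyte markers, 12 of which had a negative difference (median −0.17). Their mean level was 11.96 to 12.10 in C57BLKS/J and 12.12 to 12.44 in C57BL6/J. No call was made among 14 microglial markers (median 0.01, nearest Fcrls at 0.40 ± 0.18), 7 markers of oligodendrocyte precursors (median −0.09, nearest Pdgfra at 0.19 ± 0.08), 12 endothelial and mural markers (nearest Pdgfrb at −0.37 ± 0.14) or the single blood marker tested, Hbb-b2 (−0.19 ± 0.09).

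The next 3 lists are also read against 2.18% called and a median difference of 0.02 for all genes. The share of negative differences over all genes was not counted. Among 18 circadian clock genes, Bhlhe41 was lower and a pair of transcription factors, Nr1d2 and Tef, were higher, with differences of 0.23 ± 0.05 (adjusted p = 0.0349) and 0.36 ± 0.08 (adjusted p = 0.0448). Nr1d2 had levels of 12.98, 12.91 and 12.93 in C57BLKS/J, against 12.84, 12.62 and 12.67 in C57BL6/J, and both calls were lost when any 1 array other than the tested C57BL6/J one was left out, without an intensity trend, with median centring and without a filter. The second Nr1d2 probe set gave −0.22. In the list of glucocorticoid-responsive genes, 15 of 16 differences were negative with a median of −0.26, and 1 was called: Arrdc2, an arrestin-domain gene, at 3.73, 3.77 and 3.64 in C57BLKS/J, against 5.48, 5.35 and 5.94 in C57BL6/J, a difference of −1.88 ± 0.36 (adjusted p = 0.0105). That call was lost without the tested C57BLKS/J or the second untested C57BL6/J array. Of 17 activity-regulated genes 14 had a negative difference, with a median of −0.35 and none called. Junb, an immediate early transcription factor, had 8.99, 9.19 and 9.36 in C57BLKS/J, against 9.79, 10.24 and 10.31 in C57BL6/J, a difference of −0.93 ± 0.34 (adjusted p = 0.254). Junb was not called, although its arrays did not overlap between the strains. How many of all genes tested lay apart in this way was not counted.

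Metabolic and immune lists are likewise read against 2.18%. The list of respiratory chain genes, which also holds the transhydrogenase Nnt, had 2 calls among 23. They were Nnt and the complex I subunit Ndufa9. Ndufa9 was lower with a difference of −0.32 ± 0.07 (adjusted p = 0.0204) and lost its call without any 1 of 4 arrays. Of 22 genes of insulin, glucose and lipid metabolism none was called, Lpl, the lipoprotein lipase, being nearest at 12.64, 12.59 and 12.52 in C57BLKS/J, against 11.64, 11.86 and 11.62 in C57BL6/J, a difference of 0.88 ± 0.23 (adjusted p = 0.0756). Chaperones (0 of 20, nearest Calr at 0.25 ± 0.09), interferon-stimulated genes (0 of 10, nearest Lgals3bp at 0.39 ± 0.19) and Y-linked genes (0 of 3, nearest Kdm5d at 0.43 ± 0.18) had no call. The list of genes of the major histocompatibility complex and antigen presentation had none either, but only 7 of its 21 genes were tested. Its smallest p belonged to H2-Ke6 at 0.59 ± 0.15. H2-K1, chosen after its value was seen, had −0.67 ± 0.18 (adjusted p = 0.0957). H2-T24, which was called and is described below, is not on that list. By contrast, 9 of 18 tested genes listed as known to vary between inbred strains were called, 6 higher (Nnt, Gabra2, Wdfy1, Cap1 and Glo1 among them) and 3 lower (Mid1, Erdr1 and Etnppl). That list was drawn up with these results known and is no independent support for its count.

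Pdxdc1, a pyridoxal phosphate-dependent decarboxylase-like gene, is a gene that has been studied for a part in prepulse inhibition. It had levels of 8.70, 8.71 and 8.99 in C57BLKS/J, against 8.84, 8.71 and 8.65 in C57BL6/J, a difference of 0.07 ± 0.21 (adjusted p = 0.999). None of its 4 tested probe sets was called. Its means were lower in C3H HeJ at 6.63 ± 0.15 and in BalbC/J at 7.44 ± 0.56. None of 14 tested neighbours on chromosome 16 was called, the nearest being Snx29 at −0.60 ± 0.28. The list of candidate genes for prepulse inhibition and schizophrenia, which includes Pdxdc1, had no call among 17 tested, Dtnbp1 having the smallest p at 0.19 ± 0.09 (adjusted p = 0.427). Among 10 tested pyridoxal phosphate-dependent decarboxylases and lyases the only call was Etnppl.

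The called genes were next placed in the order of genes on the chromosomes, taken from RefSeq annotation of the mouse assembly GRCm38.p6 for names and order only. All 268 had a place among the 12252 tested genes on chromosomes 1 to 19 and X. Chromosome 17 had the highest share called, 5.71% (32 of 560), followed by chromosome 14 with 3.64% (16 of 439) and chromosome 11 with 3.33% (32 of 960). The lowest shares were those of chromosome 10 with 0.669% (4 of 598), chromosome 7 with 0.797% and chromosome 18 with 0.926%.

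Windows of 25 consecutive tested genes in which the share called was at least 4 times the background merged into 29 runs. Their windows held 11.9% of the placed genes and 149 of the called ones, or 55.6%. Since the calls themselves define the runs, these shares are a description and not a test. Runs of 15-gene windows held 177 called genes and those of 50-gene windows 109.

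**Figure D4:**
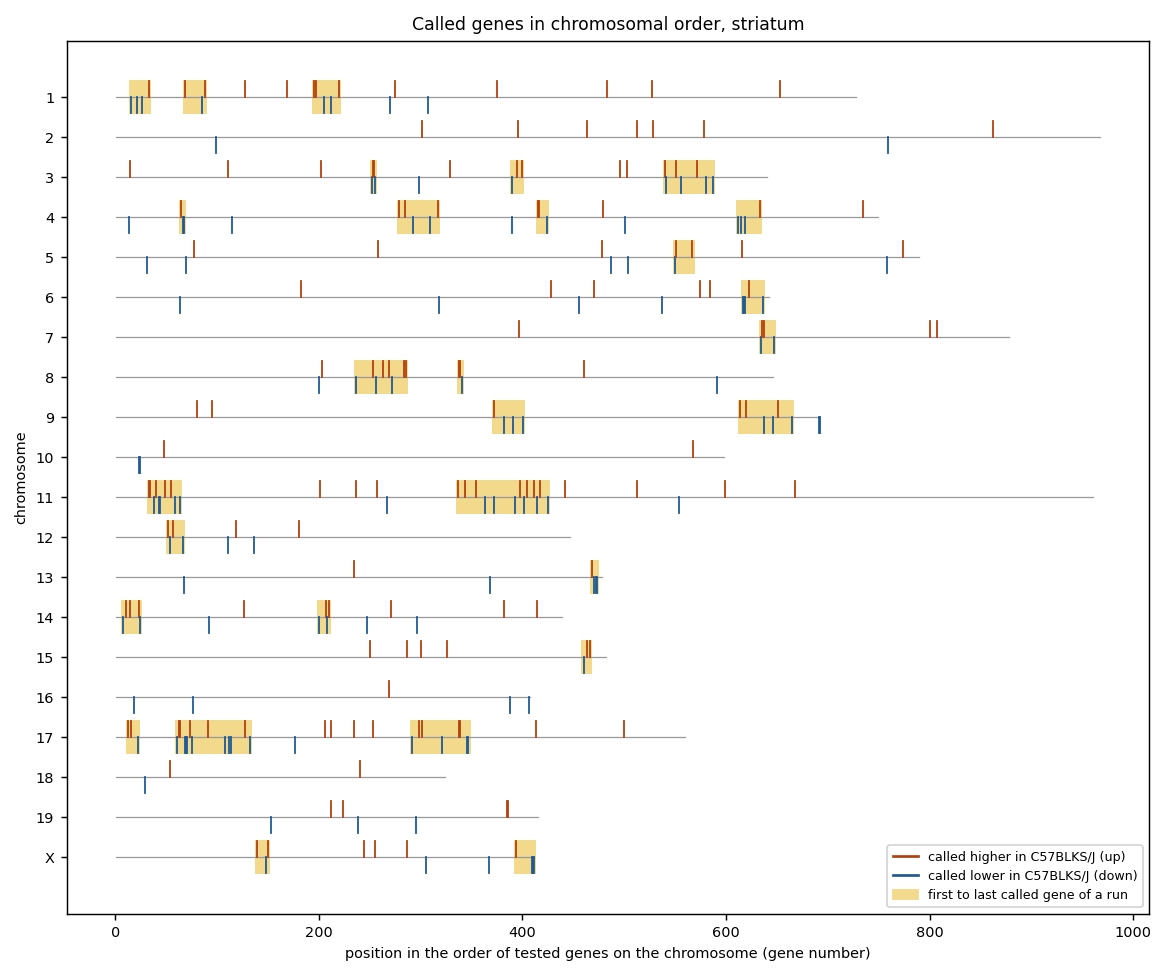
Called genes in the order of tested genes along each chromosome (x axis, gene number; y axis, chromosome), ticks up for genes higher in C57BLKS/J and down for lower ones. Shaded stretches reach from the first to the last called gene of each of the 29 runs, which hold 149 of the 268 called genes, with the longest on chromosomes 11 and 17.

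The run with the most calls lay on chromosome 17 between Zfp52 and Sox8, with 14 of the 72 tested genes from the first to the last of them called, 5 higher and 9 lower. Of the 14, 8 were zinc finger genes with Zfp symbols. Zfp40 was lower at 7.98, 8.03 and 7.66 in C57BLKS/J, against 9.39, 9.67 and 9.49 in C57BL6/J, a difference of −1.63 ± 0.15 (adjusted p = 2.21e-05), and Zfp758 likewise with −1.48 ± 0.15 (adjusted p = 4.19e-05). Zfp52, at or below the 40th percentile on 2 C57BLKS/J arrays, was lower with a difference of −1.09 ± 0.18 (adjusted p = 0.0036) and Sox8, a transcription factor of glia and neural crest, with −1.60 ± 0.28 (adjusted p = 0.00621). Zinc finger genes of this kind are close paralogs, and whether probes cross-react between them was not tested. A second run on chromosome 17, from Abhd16a to Enpp4, crosses the major histocompatibility complex and had 8 of 56 called, counted in the same way. In it Ptchd4 and Lst1, a leukocyte transcript at 4.39, 5.35 and 5.43 in C57BLKS/J, against 3.60, 3.62 and 3.25 in C57BL6/J, were higher, Lst1 by 1.57 ± 0.25 (adjusted p = 0.00242). H2-T24, a non-classical class I gene, was lower at 2.99, 3.18 and 2.84 in C57BLKS/J, against 4.29, 4.04 and 3.67 in C57BL6/J, and its C57BLKS/J arrays were all at or below the 40th percentile, so that it was at least 1.74-fold lower (adjusted p = 0.000265). Abhd16a and Enpp4 were lower with differences of −0.49 ± 0.10 and −0.46 ± 0.08. Both calls were lost with the 6 arrays alone and with the second probe set, and that of Abhd16a also without the second untested C57BLKS/J array, the tested C57BL6/J array or the second untested one.

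Chromosome 11 held 2 long runs. From Gas7 to Zzef1, 13 of 89 genes were called, 7 higher and 6 lower. Gas7, a gene of neurite outgrowth, was higher at 14.04, 13.22 and 13.75 in C57BLKS/J, against 12.40, 12.90 and 12.14 in C57BL6/J, a difference of 1.19 ± 0.22 (adjusted p = 0.00703), but its other 3 probe sets above the filter were not called, and the call was lost without the tested C57BLKS/J array. Pfn1 lies in this run too. Sat2, a diamine acetyltransferase-like gene, was lower at 4.76, 4.88 and 4.83 in C57BLKS/J, against 6.26, 6.85 and 6.85 in C57BL6/J, a difference of −1.83 ± 0.20 (adjusted p = 0.000108). Psmb6, a catalytic subunit of the proteasome, was lower at 9.31, 9.97 and 9.90 in C57BLKS/J, against 11.55, 11.42 and 11.44 in C57BL6/J, a difference of −1.74 ± 0.13 (adjusted p = 2.59e-06). The other run, from Nf2 to Ccm2, had 10 of 32 called, 5 higher and 5 lower. Nf2, the merlin tumour suppressor, was higher with a difference of 0.30 ± 0.07 (adjusted p = 0.0328), while Ccm2, a scaffold of endothelial junction signalling, was lower with a difference of −0.90 ± 0.18 (adjusted p = 0.0123) and Znrf3, a ubiquitin ligase that removes Wnt receptors, likewise with −0.79 ± 0.14 (adjusted p = 0.00673). The call of Nf2 was lost when any 1 array was left out, and that of Ccm2 without any 1 of 3 arrays.

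Smaller runs contained many of the largest differences. On chromosome 8, from Zfp869 to Slc27a1, 8 of 50 were called, among them Plvap and Arrdc2, and Zfp869 had a difference of −0.51 ± 0.07 (adjusted p = 0.00104). On chromosome 3, from Col25a1 to Pkn2, 7 of 48 were called, among them Etnppl, Tacr3 and Bmpr1b. Bmpr1b, a type I receptor of bone morphogenetic proteins, was lower at 5.19, 6.65 and 6.29 in C57BLKS/J, against 7.80, 7.78 and 7.93 in C57BL6/J, a difference of −1.80 ± 0.25 (adjusted p = 0.000631), whereas Col25a1, a transmembrane collagen, was higher with a difference of 0.79 ± 0.16 (adjusted p = 0.0164) and Pkn2, a protein kinase, lower with a difference of −0.74 ± 0.14 (adjusted p = 0.00941). On chromosome 6, from Rassf8 to Rps4l, 5 of 20 were called, 4 of them lower. Sspn, sarcospan of the dystrophin complex, was lower at 5.89, 6.20 and 5.18 in C57BLKS/J, against 8.65, 8.31 and 8.50 in C57BL6/J, a difference of −2.73 ± 0.25 (adjusted p = 1.62e-05), and Rassf8 had −1.46 ± 0.14 (adjusted p = 1.94e-05), beside Bhlhe41. On chromosome 13, from Nnt to Ccl28, 4 of 6 were called, with the RIKEN transcript 4833420G17Rik lower at 8.67, 8.32 and 8.40 in C57BLKS/J, against 10.04, 9.97 and 9.97 in C57BL6/J, a difference of −1.53 ± 0.08 (adjusted p = 9.15e-08), beside Tmem267. Other 4833420G17Rik probe sets above the filter gave −2.21 and −3.61, each called lower, and −0.04, not called. A further probe set of this transcript was called higher by 2.14 (adjusted p = 0.000211 among probe sets). Its means were 7.17 in C57BLKS/J and 5.03 in C57BL6/J, so the transcript has no single direction on this array. The second probe sets of Bmpr1b, Sspn and Rassf8 were not called. At the end of the X chromosome, Glra2, a glycine receptor subunit, was higher with a difference of 0.83 ± 0.19 (adjusted p = 0.0413), and Mid1, G530011O06Rik and Erdr1 were lower, 4 of 18 in all. The calls of Glra2 and Col25a1 were each lost without any 1 of the 4 untested arrays, and that of Pkn2 without the tested C57BL6/J array.

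The same contrast in the other tissues of these strains shows which striatal differences were shared. With 12 mice per strain and 9 pooled for each tissue, the tissues share mice and are not independent samples. In hippocampus 686 of 12317 genes were called (5.57%) and in brainstem 342 of 12484 (2.74%). Of 266 striatal calls also tested in hippocampus, 170 were called there in the same direction, which is 63.9% of the striatal calls and 25.1% of the 676 hippocampal ones, and 2 were called in the opposite direction. For brainstem the number was 127, or 48.7% of 261 striatal and 38.1% of 333 brainstem calls, with none opposite. Across the 11606 genes tested in all tissues, 54 were called higher and 60 lower in all 3. Hippocampal calls numbered 827 without the tested C57BLKS/J array, 464 without the first untested one and 421 without the second. They numbered 928 without the tested C57BL6/J array, 765 without the first untested one and 345 without the second. Brainstem calls numbered 186 without the tested C57BLKS/J array, 217 without the second untested one, 183 without the first untested array of C57BL6/J and 216 without its second.

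Cap1, Wdfy1, Tmem267 and Nat8f4 were called with the same sign in all 3 tissues. Cap1 differed by 3.90 ± 0.18 in hippocampus and 3.43 ± 0.07 in brainstem, and Wdfy1 by 2.31 ± 0.10 and 2.98 ± 0.09. Tmem267 differed by −5.61 ± 0.31 and −5.75 ± 0.37, and Nat8f4 by −4.62 ± 0.12 and −3.73 ± 0.17. All 8 of these differences were called.

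A direct test of the striatal difference against the mean of the other tissues called 32 genes (0.26%), of which 20 were called in striatum, and 883 reached an unadjusted p under 0.05. Although 80 striatal calls were called in neither other tissue, 8 of them were called in this test, so the remaining ones are not shown to differ between tissues. The count was 51 without the tested C57BL6/J array of striatum and 13 without its first untested one.

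Necdin, Ndn, is an imprinted gene expressed in neurons from the paternal allele. In striatum it was 14.47, 14.35 and 14.48 in C57BLKS/J, against 13.44, 13.53 and 13.42 in C57BL6/J, a difference of 0.97 ± 0.06 (adjusted p = 2.29e-07), and all 5 probe sets above the filter were called higher, by 0.96 to 1.22. The difference was 0.55 ± 0.05 in hippocampus and 0.32 ± 0.05 in brainstem, and the striatal excess was 0.54 ± 0.06 (adjusted p = 3.9e-06). The level was 14.43 ± 0.07 in C57BLKS/J, the other strains had means of 14.16 to 14.39, and C57BL6/J was low at 13.46 ± 0.06. Other genes of the same imprinted domain, chosen after their values were seen, were Magel2 and Snrpn, with differences of −0.01 and −0.01, neither called.

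Tacr3 and Sema3a were lower in striatum far more than elsewhere. Tacr3 differed by −0.65 ± 0.14 in hippocampus and 0.07 ± 0.30 in brainstem, and Sema3a by −0.02 ± 0.34 and −0.45 ± 0.13. The striatal excess was −3.68 ± 0.49 (adjusted p = 2.04e-05) for Tacr3 and −2.24 ± 0.34 (adjusted p = 0.000197) for Sema3a. Ror1, not among the 6 smallest p, had −0.21 ± 0.13 in hippocampus and 0.00 ± 0.57 in brainstem, and an excess of −2.82 ± 0.59 (adjusted p = 0.0197). Rps2, a protein of the small ribosomal subunit, had differences of −0.66 ± 0.06 in striatum, −0.49 ± 0.05 in hippocampus and −0.04 ± 0.04 in brainstem, an excess of −0.39 ± 0.06 (adjusted p = 0.000253).

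For the remaining genes of that test a level near the floor is part of the result. Bhlhe41 was lower with a difference of −3.88 ± 0.19 in hippocampus and did not pass the filter in brainstem, and its excess was −3.62 ± 0.42 (adjusted p = 2.91e-06). Glra1, a glycine receptor subunit of brainstem and spinal cord, had levels of 3.71, 3.86 and 3.57 in C57BLKS/J, against 3.76, 3.69 and 3.65 in C57BL6/J in striatum, where the strains overlapped at 0.01 ± 0.09, but differed by −3.53 ± 0.28 (adjusted p = 3.61e-06) in brainstem. Its excess was 1.79 ± 0.23 (adjusted p = 1.64e-05), with the whole difference in brainstem.

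**Figure D5:**
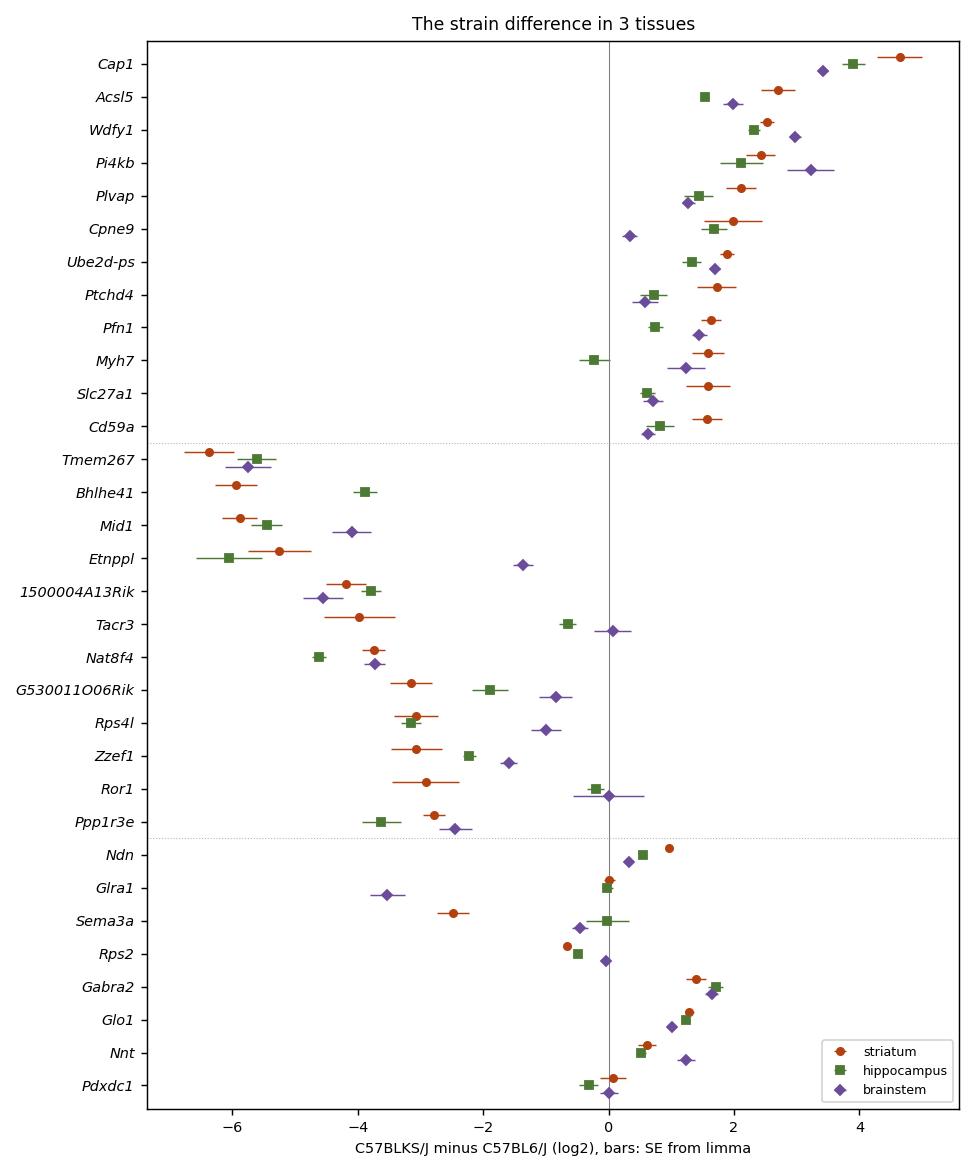
Strain difference (x axis, C57BLKS/J minus C57BL6/J, log2, bars are limma standard errors) in striatum, hippocampus and brainstem for the 12 largest higher calls (top), the 12 largest lower calls (middle) and 8 further genes (bottom). Cap1, Wdfy1, Tmem267 and Nat8f4 are called in all 3 tissues, Tacr3, Sema3a and Ror1 lie between −0.65 and 0.07 outside striatum, and Bhlhe41 has no brainstem point because it did not pass the filter there.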

How the data were processed

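The deposited table holds log2 values per probe set that the authors had background-corrected, normalized and summarised. Per the submitters' processing notes they used R 2.6.1, affy 1.16.0, RMA, GCRMA 2.10.0 and limma 2.12.0, and those notes do not say which of RMA and GCRMA made the values. The labels name no hybridization or scan batch, so no batch was tested. The precision is limited by 3 arrays per strain and tissue.

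From these values, differences were computed with limma 3.58.1 in R 4.3.3 (strain and testing as terms, intensity trend, two-sided, Benjamini-Hochberg adjustment). Of 45101 probe sets, 64 were controls, 34945 had 1 gene symbol in the platform annotation, 932 several and 9160 none here. Symbols were updated through gene IDs to RefSeq, where 34741 matched. The 18193 genes were each represented by the probe set with the highest mean over 54 arrays. A gene entered the test of a tissue if 3 or more arrays of that tissue had it above their own 40th percentile. The tissue test used strain and testing within tissue over all 54 arrays, taken as independent. The limma fit of the strain difference in striatum genes was tried on simulated data, whereas the tissue test, the probe set level and the runs were not. Columns of no sample in the labels numbered 0.

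Genes named are the 12 largest higher and 12 largest lower calls with strains apart, up to 4 called members of each of 32 lists or the 1 with the smallest p, the 6 smallest p of the tissue test, some of the first, last and 3 largest calls of each run, and Pdxdc1, Nnt, Gabra2 and Glo1. The rule gave all of these run genes, but many of them, and many runs, are left out of the text. Others are said to be chosen after their values were seen. The comparison, the lists and the rule were chosen with earlier results of these data known. Of 529 list genes 406 were tested. Same-numbered pools were checked for pairing: the correlations of their deviations were 0.13, −0.09 and 0.28, so the numbers were not taken to pair samples. Alternatives were other models, variance priors, normalizations, filters and probe sets, and each array left out in turn.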

Additional observations from a re-analysis of the deposited data

Results flagged for a closer look

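The strain difference in striatum departed from that in hippocampus and brainstem at 32 genes in the direct test (limma, Benjamini-Hochberg adjusted p under 0.05). The 6 with the smallest p stand here because of that test. The striatal difference minus the mean of the other tissues was −3.62 for Bhlhe41, 0.54 for Ndn, 1.79 for Glra1, −3.68 for Tacr3, −2.24 for Sema3a and −0.39 for Rps2. The value of Glra1 arises in brainstem, since its striatal level was below 4 on all 6 arrays, and that of Bhlhe41 includes a brainstem level below the filter. The striatal value of Tacr3 was carried by the 2 untested C57BLKS/J pools at 3.26 and 3.16, with the tested pool at 6.19.

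Among probe sets that no gene-level comparison used, 132 called probe sets had no single gene symbol here. They were above the 40th percentile on at least 3 of the 18 striatum arrays and differed between C57BLKS/J and C57BL6/J, and they are counted without names.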

How the results depend on the processing

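Precision was limited by 3 pools per strain, by probe sets near the floor and by genes whose probe sets disagree. Of 71 called genes named in the text, 51 kept direction and call under all alternatives in which they were tested, the choice of probe set aside, and 18 lost the call when at least 1 array was left out. Run genes that the text does not name are outside these counts. With each array left out in turn, the count of 268 called genes ranged from 157 to 200, the 92 over 2-fold from 77 to 93, the 601 probe sets from 385 to 475 and the 32 genes of the tissue test from 13 to 51. It ranged from 345 to 928 in hippocampus and from 183 to 234 in brainstem, where these alternatives were chosen after seeing the data. Fewer arrays enter these fits. With the next brightest probe set, 127 genes were called, 59 over 2-fold and 38.6% of calls higher, against 54.9% before, and fewer genes have such a probe set. It changed the sign of 5 named genes, Ube2d-ps at −1.60, Slc27a1 at −0.11, Zzef1 at 0.35, Nr1d2 at −0.22 and Mtm1 at 0.25, and the cause was not tested. Of these, only Ube2d-ps was called in the opposite direction at the level of probe sets. The tissue test called 17 genes against hippocampus alone and 56 against brainstem alone. Other models, variance priors, normalizations, filters and averaged probe sets gave 215 to 296 called genes, the lowest without a filter. The fit on the 6 arrays alone called 230 genes, 167 of them among the 268, and 14 of the 71 named genes lost their call in it. Same-numbered pools were not taken as pairs. With the replicate block, 237 genes were called, 90 over 2-fold, with 560 probe sets, 31 genes in the tissue test, 626 in hippocampus, 313 in brainstem and 251 against C57BL10/J, and the calls of Nr1d2 and Tef were lost.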

Other observations

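Several called genes outside the largest 24 concern lipid metabolism and membrane traffic, as single genes and not as tested groups. They were put together after their values were seen, and the share of such genes among all tested was not counted. The list of insulin, glucose and lipid metabolism genes had no call among 22 tested. Mboat2, a lysophospholipid acyltransferase, was 8.54, 9.06 and 8.52 in C57BLKS/J, against 11.26, 11.22 and 11.25 in C57BL6/J, a difference of −2.54 ± 0.16 (adjusted p = 2.29e-07), while its second probe set gave −0.21, not called. Far1, the fatty acyl-CoA reductase needed for ether lipids, was 11.55, 11.60 and 11.46 in C57BLKS/J, against 12.73, 12.79 and 12.75 in C57BL6/J, a difference of −1.22 ± 0.07 (adjusted p = 1.1e-07). Of its other 4 probe sets, 2 were called lower at −1.12 and −1.41 and 2 were not called at 0.00 and 0.11. In both genes C3H HeJ lay with C57BLKS/J, at 8.84 ± 0.31 for Mboat2 and 11.40 ± 0.06 for Far1. Inpp4a, a phosphoinositide phosphatase, was higher with a difference of 1.49 ± 0.20 (adjusted p = 0.000442) and Pikfyve, the kinase that makes phosphatidylinositol 3,5-bisphosphate, lower with a difference of −1.18 ± 0.12 (adjusted p = 5.19e-05). Vps33a, a subunit of endosomal tethering complexes, was higher with a difference of 0.71 ± 0.08 (adjusted p = 0.000108). Scoc, a coiled-coil protein of the Golgi, was lower at 11.97, 12.13 and 12.01 in C57BLKS/J, against 13.01, 12.94 and 12.95 in C57BL6/J, a difference of −0.93 ± 0.06 (adjusted p = 5.07e-07). The second Pikfyve probe set was not called. Ppt1, a lysosomal thioesterase, was higher with a difference of 0.50 ± 0.08 (adjusted p = 0.00185), which its other 2 probe sets above the filter did not share, at 0.06 and −0.06.

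Prex2, an exchange factor of Rac, was 9.45, 9.33 and 8.33 in C57BLKS/J, against 11.40, 11.22 and 11.27 in C57BL6/J, lower with a difference of −2.26 ± 0.22 (adjusted p = 2.81e-05) in striatum and by −2.34 ± 0.06 and −2.41 ± 0.25 in hippocampus and brainstem. Dst, which encodes the cytolinker dystonin, was higher at 12.97, 12.93 and 12.96 in C57BLKS/J, against 11.82, 11.59 and 11.71 in C57BL6/J, a difference of 1.24 ± 0.15 (adjusted p = 0.000236), and by 0.33 ± 0.09 in hippocampus and 0.48 ± 0.09 in brainstem, with a striatal excess of 0.84 ± 0.15 (adjusted p = 0.00177). Rassf8 and Mtm1, a myotubularin phosphatase, also differed between tissues, with values in striatum beyond the other tissues of −0.92 ± 0.17 (adjusted p = 0.00332) and −1.08 ± 0.23 (adjusted p = 0.0229). The striatal call of Mtm1 was lost with the 6 arrays alone and without any 1 of the untested arrays. Its other probe sets above the filter gave 0.25, not called, and −1.49, called lower.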
